A study of Rattus norvegicus with 6 samples.

Results

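The genes described here are those of the rat major histocompatibility complex (MHC, called RT1 in the rat), of antigen processing and of the interferon response, in pancreatic duct glands. Members were taken by gene symbol alone: rows named RT1-, Ifit, Ifi, Oas, Gbp or Irf with their suffixes, and a set of single named genes such as B2m, Cd74, Tap1 and Stat2, which gave 96 of the 15679 rows in the tables. They were 37 class I genes, 6 genes of peptide supply and loading, 12 class II genes, 28 interferon-induced genes, 11 regulators and 2 IRF2-binding proteins (Irf2bp1 and Irf2bpl) that match by spelling only. RNA came from gland tissue cut out by laser from Sprague-Dawley rats, with 3 libraries of wild type, titled WT26, WT1 and WT4, beside 3 from pre-diabetic rats transgenic for human islet amyloid polypeptide, titled HIP30, HIP2 and HIP3. In the HIP rat, as is generally known, the transgene is driven by an insulin promoter and so targets beta cells. The glands were recognised by morphology. The labels give no age and do not say that libraries are from different animals. The p-values therefore describe variation among these libraries, part of which may be technical.

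Class I molecules pair a heavy chain with beta-2-microglobulin and show peptides from inside the cell to cytotoxic T cells. The peptides are cut by the proteasome, some of whose subunits are exchanged under interferon, and are carried into the endoplasmic reticulum by the Tap transporter. Class II molecules are pairs of an alpha and a beta chain assembled on the invariant chain Cd74. They are made mainly by macrophages, dendritic cells and B cells, and interferon gamma can induce them on epithelium through the transactivator Ciita. Type I interferons act through factors that include Stat2 and Irf9 on sites called ISRE, and interferon gamma acts on sites called GAS, while class II promoters carry an X box and a Y box.

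Stretches upstream of 6 members are shown because they hold such letters and because these genes recur in the results. They come from RefSeq promoters of the build GRCr8, 5′ to 3′ on the strand of the gene, and end before the annotated start. Capitals mark matches, searched on both strands: for the ISRE core GAAA, any 2 bases and GAAA; for GAS TTC, any 3 bases and GAA; for the X box core GCAAC, any base and GATG; for the Y box ATTGG. Y box letters are in capitals only in the class II genes and B2m, and the 1 Y box match in each of Ifi27 and Oas1b is left in lower case. In RT1-Da (chr20:4515318-4515385, plus strand) and RT1-Db1 (chr20:4560198-4560289, minus strand), the alpha and beta chain of one class II molecule, they mark an X box core followed by Y box letters. In B2m (chr3:129549165-129549285, plus strand) they mark an ISRE core and a Y box, and in Tapbp (chr20:4967878-4967918, minus strand) overlapping ISRE cores. In Ifi27 (chr6:128355128-128355252, plus strand) they mark 2 separate ISRE cores, and in Oas1b (chr12:41395881-41396080, minus strand) a GAS match and overlapping ISRE cores.
RT1-Da: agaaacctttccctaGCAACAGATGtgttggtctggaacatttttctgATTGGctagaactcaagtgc
RT1-Db1: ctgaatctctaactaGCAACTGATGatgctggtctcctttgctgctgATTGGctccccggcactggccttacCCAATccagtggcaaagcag
B2m: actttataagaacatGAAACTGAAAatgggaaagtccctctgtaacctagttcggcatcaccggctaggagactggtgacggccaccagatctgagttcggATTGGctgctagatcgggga
Tapbp: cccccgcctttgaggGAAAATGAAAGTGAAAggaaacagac
Ifi27: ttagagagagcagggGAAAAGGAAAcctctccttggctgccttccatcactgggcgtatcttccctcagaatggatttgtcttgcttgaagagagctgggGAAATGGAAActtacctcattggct
Oas1b: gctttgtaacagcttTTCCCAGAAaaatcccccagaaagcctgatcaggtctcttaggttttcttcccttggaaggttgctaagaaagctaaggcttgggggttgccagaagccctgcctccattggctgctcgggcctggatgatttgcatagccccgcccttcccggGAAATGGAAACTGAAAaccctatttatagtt

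Promoters were found for 78 of the 96 members. In the 250 bases before the start, the ISRE core stood in 11 of 21 interferon-induced genes, 4 of 6 loading genes and 4 of 31 class I genes, against 3.29% of all 27457 promoters. The X box core stood in 4 of 10 class II promoters (RT1-Da, RT1-Db1, RT1-Db2 and RT1-DOb) and in no other member, against 0.109% of all promoters. Each of the 10 class II promoters held a Y box, as did 34.3% of all promoters. GAS letters stood in 6 of 21 interferon-induced genes, against 7.52% of all promoters. Such matches describe letters and do not show that a factor binds.

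Library totals lay between 15141136 and 17574682 reads, and 7 to 12 members had no read in a given library. Over all rows, 672 had no read in WT4 and 2822 in WT26, with 1837 to 2488 in the other libraries. The part of this in the levels of WT4 and WT26 was not tested. Levels are in CPM, the reads of a gene relative to the library total scaled with a TMM factor, and are not compared between genes because they carry no correction for length. Wherever a gene has 3 values for wild type and 3 for HIP, these are in the order WT26, WT1, WT4 and HIP30, HIP2, HIP3. Differences are HIP minus wild type on a log2 scale. Of the 96 members 74 passed the filter on low reads and were tested. The other 22 were 13 class I, 3 class II and 5 interferon-induced genes and Tap2, with at most 14 reads in any library. Tap2, the partner of Tap1 in the peptide transporter, had 15 reads over all libraries, and RT1-DMa and RT1-DMb, which exchange class II peptides, had 50 and 28.

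No member passed the test between the genotypes, and the levels varied from library to library in a way that crossed the groups. Of the 74 tested members 57 were highest in WT4 or HIP30, as were 36.3% of all tested genes. Both libraries were picked after the values were seen, so this share and those that follow are description only. Class I genes were highest in HIP30 in 16 of 24 cases, against 23.5% of all genes. Interferon-induced genes were highest in WT4 in 13 of 23 cases, against 12.9% of all genes. As the median difference from the wild-type mean, class II genes stood at 1.23 in WT4, 0.88 in HIP30, 0.50 in HIP2, 0.01 in HIP3, -0.48 in WT1 and -0.74 in WT26. Over all tested genes such medians lay between -0.02 and 0.05.

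**Figure D1:**
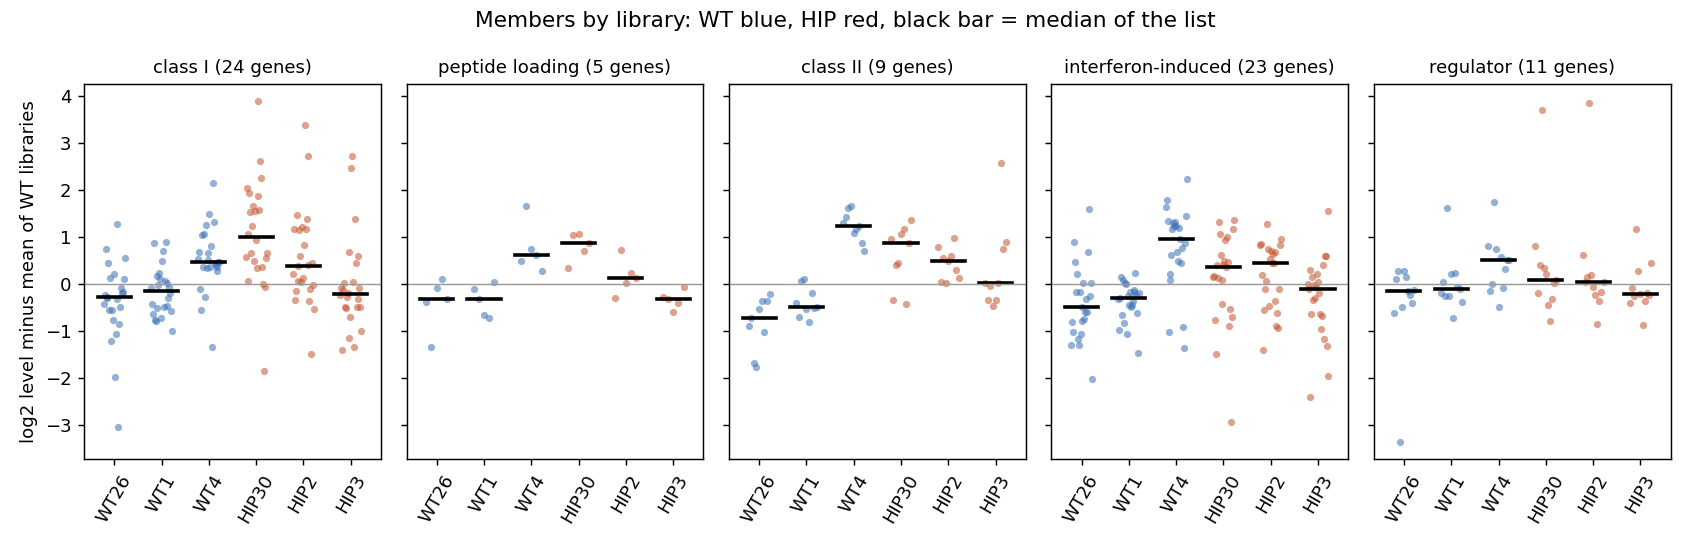
Log2 level of each tested member minus its mean over the wild-type libraries, by library and list, with points for genes and bars for list medians. WT4 and HIP30 carry the highest medians in the class I, loading and class II lists, and HIP3 lies near WT26 and WT1 in the class I and loading lists.

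Using limma over 12102 genes, 0 genes, members included, had a Benjamini-Hochberg adjusted p under 0.05 (0%), and limma-voom called 0 as well. Unadjusted, 2 members had a p under 0.05, RT1-M2 higher and Ifi27 lower, against 3.29% of all genes in the higher and 3.26% in the lower direction (6.54% together, 792 genes; 914 with limma-voom). The groups did not overlap in 5 of 74 members. RT1-M2 and RT1-CE4 were higher and Ifi27, Oas1b and Irf8 lower in HIP, against 5.27% and 4.27% of all genes and 9.54% together, so the members' share was no larger than the background. Differences were above 0 in 48 of 74 members, against 51.1% of all genes, with a median of 0.18 against 0.01. Scaled by library totals, 59.6% of all genes were above 0.

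**Figure D2:**
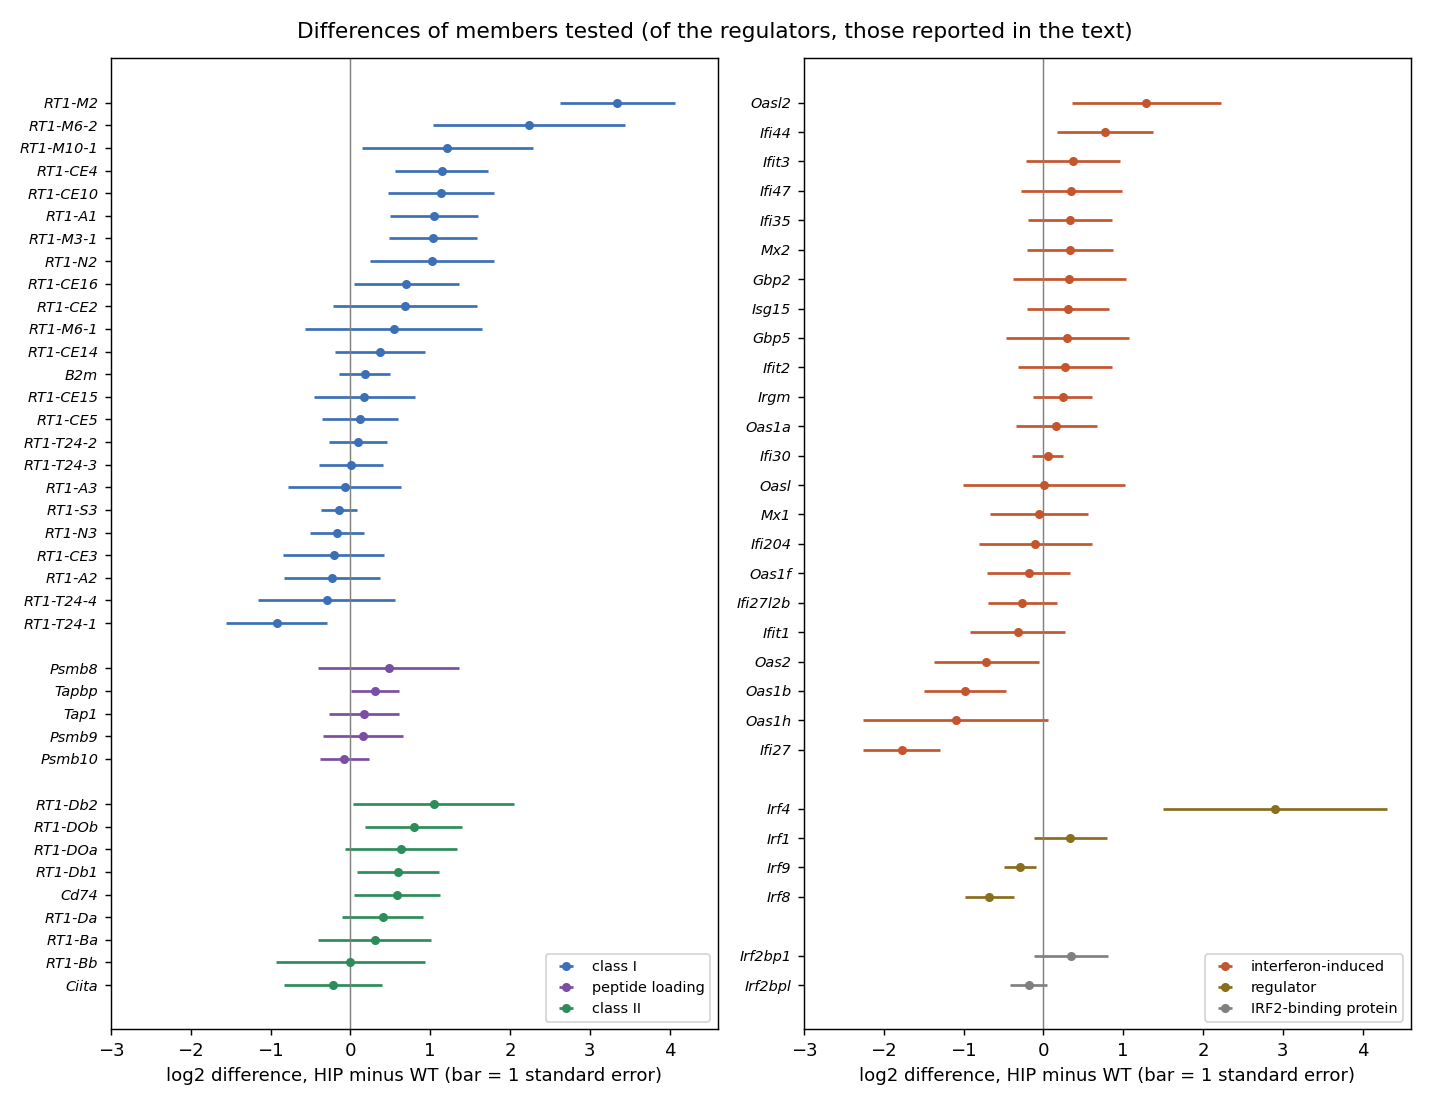
Log2 difference between HIP and wild type for the tested members, of the regulators only those whose differences are given in the text, with 1 standard error from limma. RT1-M2 and Ifi27 stand farthest from 0 relative to their error, and most of the others lie close to 0 for the length of their bar.

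B2m, the light chain shared by class I molecules, stood at 641, 815 and 1249.8 CPM in wild type and 1291, 1000.5 and 731 CPM in HIP. The groups overlapped, with WT4 and HIP30 at like heights and HIP3 below WT1. The difference was 0.18 (SE 0.32, limma adjusted p = 0.930). RT1-A1, a class I heavy chain of the A region, stood at 10.7, 9.33 and 20.2 CPM in wild type and 52.7, 28.7 and 11.9 CPM in HIP. HIP30 and HIP2 lay above each wild-type library and HIP3 did not. Its difference of 1.05 (SE 0.55, limma adjusted p = 0.691) became 0.55 without HIP30 and 1.605 without HIP3.

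RT1-A2, another heavy chain of the A region, was highest in the library numbered 26 or 30 of either group. It stood at 122, 46.8 and 67.9 CPM in wild type and 153, 57.4 and 27.6 CPM in HIP, a difference of -0.23 (SE 0.601, limma adjusted p = 0.951). RT1-CE14, a class I gene of the C/E region, had values of 26.1, 10.9 and 24.4 and 55.7, 20.03 and 13.5 CPM, again with WT26 and HIP30 on top. WT26 and HIP30 were both above the other 4 libraries in 7 of 74 members and both below in 3, against 14.5% and 11.6% of all genes. The ratio of RT1-A2 to RT1-A1 reads, picked after its values were seen, was 11.4 in WT26, 5.01 in WT1 and 3.36 in WT4. It was 2.89, 2.00 and 2.32 in HIP30, HIP2 and HIP3, so the reads assigned to these related genes did not vary in proportion. The part of reads shared between close copies in this ratio was not tested.

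RT1-M2, a class I gene of the M region, had the largest difference among tested members. It had 1, 8 and 6 reads in wild type and 91, 63 and 39 reads in HIP. Expressed as CPM these are 0.0596, 0.491 and 0.365 against 5.53, 3.85 and 2.39, and the lowest HIP library lay above the highest wild-type library. The difference was 3.34 (SE 0.72, limma adjusted p = 0.691). With each library left out in turn it ran from 2.81 to 3.69, and the limma adjusted p over all alternatives from 0.149 to 0.9997.

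Other M region genes varied more within the groups. RT1-M3-1, named for a region whose M3 molecule presents formylated peptides, had 6.20, 5.53 and 13.7 CPM in wild type and 28.8, 17.8 and 8.03 CPM in HIP (difference 1.03, SE 0.55). RT1-M6-2 had 0.179, 4.48 and 10.9 CPM against 15.1, 16.2 and 6.31 CPM, a difference of 2.24 (SE 1.21) that became 0.71 without WT26. In both genes HIP30 and HIP2 were above WT4 and HIP3 was below it.

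In the C/E region RT1-CE4 was separated between groups by a narrow gap. It stood at 0.775, 1.54 and 2.31 CPM in wild type and 4.38, 3.42 and 2.33 CPM in HIP, where WT4 and HIP3 each had 38 reads. The gap rested on the TMM factors, 1.04 in WT4 and 0.977 in HIP3. Relative to the library totals alone, 15821742 and 16709667 reads, WT4 lay above HIP3 and the groups overlapped. The difference of RT1-CE4 was 1.14 (SE 0.58). RT1-CE10 stood at 2.98, 2.09 and 7.60 CPM against 14.3, 10.2 and 3.68 CPM (difference 1.14, SE 0.66), with HIP3 inside the wild-type range. RT1-CE5 stood at 27.6, 14.3 and 33.7 CPM against 45.5, 26.01 and 14.5 CPM and overlapped widely. None of RT1-CE4, RT1-CE10, RT1-M3-1 and RT1-M6-2 passed (limma adjusted p = 0.691 to 0.698).

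RT1-S3, a class I gene outside the classical A region, stood at 85.9, 74.2 and 121 CPM in wild type and 91.4, 84.6 and 73.7 CPM in HIP (difference -0.15, SE 0.22). RT1-N3 had 20.3, 28.9 and 38.97 CPM against 36.2, 22.2 and 20.2 CPM. Within the T24 genes, RT1-T24-1 had 9.66, 10.6 and 13.4 CPM against 2.98, 3.85 and 16.8 CPM, with HIP30 and HIP2 below and HIP3 above the wild-type range. RT1-T24-2 had 6.56, 6.39 and 9.48 CPM against 6.99, 10.01 and 6.92 CPM. RT1-T24-3 had 14.8, 9.21 and 19.1 CPM against 20.2, 13.5 and 9.80 CPM, and both overlapped throughout. The 9 other tested class I genes, RT1-A3, RT1-CE2, RT1-CE3, RT1-CE15, RT1-CE16, RT1-M6-1, RT1-M10-1, RT1-N2 and RT1-T24-4, also overlapped between groups.

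As a list, 17 of 24 tested class I genes were above 0, with a median of 0.27 against 0.01 for all genes. The median was 0.00496 without HIP30, 0.14 without HIP2, 0.49 without WT4 and 0.56 without HIP3, and with the libraries numbered 1 to 4 alone it was -0.092. Class I genes are close tandem copies, and in RefSeq's GRCr8 annotation the span of RT1-CE4 overlaps those of RT1-CE5, RT1-CE6 and RT1-CE7. Reads could have been split or dropped among such copies before deposit, so levels of single class I genes are uncertain.

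The genes of peptide supply and loading were highest in WT4 or HIP30. Psmb9, a proteasome subunit induced by interferon, stood at 18.004, 12.04 and 32.1 CPM in wild type and 39.996, 19.3 and 12.6 CPM in HIP. Tap1, of the peptide transporter, stood at 16.8, 9.46 and 24.1 CPM against 25.5, 18.4 and 11.7 CPM. Tapbp, the tapasin that bridges class I to the transporter, stood at 24.02, 30.95 and 36.2 CPM against 54.5, 32.8 and 28.6 CPM. HIP30 was the highest library for these genes and HIP3 lay inside the wild-type range. Their differences were 0.16 (SE 0.50), 0.17 (SE 0.43) and 0.31 (SE 0.30), with limma adjusted p = 0.961, 0.948 and 0.837. Psmb10, another exchanged subunit, had 25.7, 31.01 and 47.5 CPM against 42.8, 27.4 and 27.5 CPM, and Psmb8 had 5 to 54 reads a library. Of 5 tested genes 4 were above 0, with a median of 0.17. It was 0.48 without WT4, 0.49 without HIP3, -0.14 without WT1 and -0.088 without HIP30, and -0.33 with the libraries numbered 1 to 4 alone.

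Class II genes had the highest median difference of the lists, 0.58, with 7 of 9 above 0, while the wild-type library WT4 was the highest of the 6 in 6 of them. Cd74 stood at 126, 177 and 579 CPM in wild type and 454, 404 and 237 CPM in HIP. RT1-Da stood at 42.2, 42.4 and 130.03 CPM against 129, 86.8 and 48.2 CPM. RT1-Db1 stood at 35.4, 26.04 and 103 CPM against 103, 69.2 and 46.1 CPM. For these genes the HIP libraries lay above WT26 and WT1 and, but for RT1-Db1 in HIP30 by under 1 CPM, below WT4. Their differences were 0.58 (SE 0.54), 0.40 (SE 0.51) and 0.596 (SE 0.51), with limma adjusted p = 0.822, 0.883 and 0.812.

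The size of these differences rested on single libraries. Without WT4 they were 1.23 for Cd74, 0.94 for RT1-Da and 1.18 for RT1-Db1, with a list median of 1.12. The limma adjusted p of Cd74 ran from 0.287 to 0.9997 over the alternatives. The list median was 0.13 without WT26, 0.33 without WT1 and 0.31 without HIP30. Among the libraries numbered 1 to 4 alone, 2 against 2, it was -0.047.

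RT1-Ba, the alpha chain of the other classical class II molecule, stood at 20.4, 69.5 and 205 CPM in wild type and 87.7, 97.3 and 64.5 CPM in HIP (difference 0.30, SE 0.71, limma adjusted p = 0.947). All HIP libraries fell between WT26 and WT4. The ratio of RT1-Ba to RT1-Da reads was 0.484 in WT26 and 0.680 in HIP30 and lay between 1.12 and 1.64 in the others, while that of RT1-Da to RT1-Db1 stayed between 1.05 and 1.63. Ciita, the class II transactivator, stood at 4.05, 4.18 and 18.7 CPM against 5.35, 7.02 and 5.39 CPM (difference -0.22, SE 0.62, and 0.50 without WT4). WT4 stood alone above the rest. RT1-Bb, the beta chain that pairs with RT1-Ba, had 3 to 51 reads a library, and RT1-DOa and RT1-DOb, which modulate peptide exchange, had 6 to 19 and 15 to 60. RT1-Db2 had 46 reads in HIP3 and at most 17 elsewhere. The groups overlapped for each of them.

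The sum of general leukocyte markers followed the class II level. The sums of macrophage, T and NK, dendritic and B cell markers as listed ranked the libraries otherwise. By list medians, however, the macrophage and monocyte genes, Mpeg1 included, ranked the libraries in the order of the class II genes. The median of the general leukocyte markers was instead higher in HIP30 than in WT4, at 0.73 and 0.67. The 12 class II genes summed to 230.1, 323 and 1044 CPM in wild type and 787, 669 and 409 CPM in HIP. The sum of 4 genes of all leukocytes (Ptprc, Coro1a, Laptm5 and Cd53) was 77.3, 90.8 and 147 CPM against 126, 119 and 110.2 CPM. It ranks the libraries in the same order, although Coro1a and Laptm5 by themselves were highest in HIP30. Macrophage and monocyte markers (13 of 14 in the tables) summed to 410.2 to 793 CPM in wild type and 612 to 2466 CPM in HIP, where Mpeg1 alone had 0, 181 and 185 and 1929, 1945 and 144 CPM. From high to low that full sum ran HIP2, HIP30, WT4, WT1, HIP3 and WT26, unlike the class II sum. Without Mpeg1, left out after its values were seen, the sums were 410.2 to 609 and 468 to 535 CPM, in the order of the class II sum. Within them Cd14 was highest in WT26 and WT1, at 323, 317 and 224 CPM against 215, 238 and 279 CPM. Of the 13 macrophage and monocyte genes 12 were above 0, with a median of 0.66.

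T and NK cell markers (9 of 9) summed to 8.29 to 37.3 CPM in wild type and 15.7 to 38.2 CPM in HIP. In WT26 6 of the 9 had no read, against 0 to 2 in the other libraries, while Nkg7 was highest in WT26, at 1.01 CPM. Dendritic cell markers (7 of 9) summed to 13.4 to 22.1 and 19.4 to 44.98 CPM. B cell markers (5 of 6) summed to 0.368 to 1.28 and 0.244 to 1.23 CPM. In WT26 4 of the 5 had no read, against 1 to 4 in the other libraries, while Cd79b was highest in WT26, at 1.25 CPM. Duct epithelium markers, which check the labelled tissue (6 of 8), summed to 13849.6, 8794 and 6356 CPM against 6564, 6337 and 7502 CPM. Within that sum Krt19 had 7325, 3072 and 1815 CPM against 1619, 1514 and 2307 CPM, and 3 of the 6 duct genes had a difference above 0. As medians over the duct genes, the log2 level against the wild-type mean was highest in HIP30, at 0.17, and lowest in WT4, at -0.28. The part of these cell types in the class II levels was not tested, and in such tissue fewer cells of a type and less RNA per cell cannot be told apart.

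**Figure D3:**
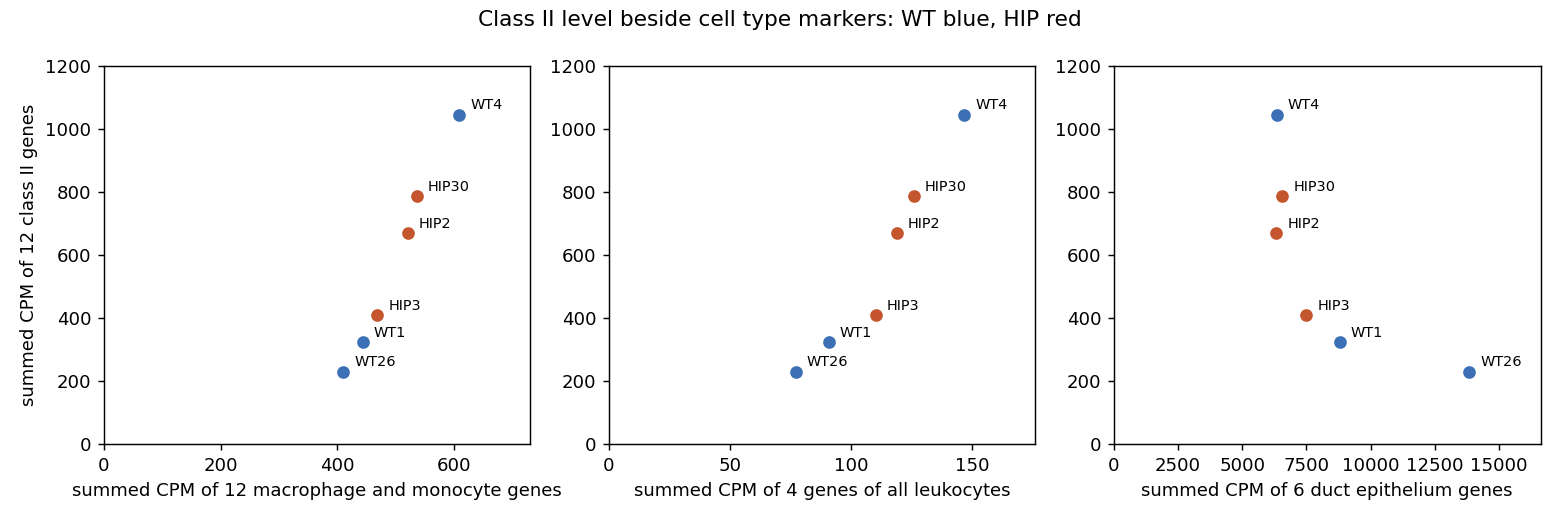
Summed CPM of the 12 class II genes against the summed CPM of 12 macrophage and monocyte genes (without Mpeg1), 4 genes of all leukocytes and 6 duct epithelium genes, with 1 point per library. Both leukocyte sums rank the 6 libraries in the order of the class II sum, with WT4 highest and WT26 lowest. With Mpeg1 included, the macrophage and monocyte sum is higher in HIP2 and HIP30 than in WT4. The duct sum is highest in WT26, where Krt19 makes up 7325 CPM of it.

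Fibroblast markers (6 of 6) summed to 891, 1263 and 1378 CPM in wild type and 281, 482 and 1115 CPM in HIP, and each of them had a difference below 0. Dcn, Lum and Dpt were lower in HIP without overlap, against 4.27% of all genes. Col1a1, Col1a2 and Pdgfra overlapped, with Col1a1 at 628 CPM in HIP3. Islet markers (7 of 7) had no read in WT26 and summed to 11321 CPM in WT4, 5054 CPM in HIP3 and 121 to 334 CPM in the other libraries. Acinar markers (6 of 6) summed to 21.5 to 64.5 and 17.9 to 99.7 CPM, and endothelial markers (5 of 6) to 86.3 to 147 and 97.1 to 134 CPM. Their part in the member levels was not tested.

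Ifi27, an interferon-induced protein of mitochondria, had the largest difference in its list and was lower in HIP. It stood at 216, 127 and 56.5 CPM in wild type and 40.8, 43.5 and 21.6 CPM in HIP, with no overlap. The means were 133 ± 79.98 CPM and 35.3 ± 11.9 CPM (SD, n = 3). The difference was -1.78 (SE 0.49, limma adjusted p = 0.691). Leaving out each library in turn gave -2.29 to -1.33, and its limma adjusted p ran from 0.243 to 0.9997 over the alternatives. Ifi44 and Gbp2 were lowest in WT26, where Ifi27 was highest.

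Oas1b, of the family of synthetases upstream of RNase L, was also lower in each HIP library. It stood at 2.86, 3.93 and 7.60 CPM in wild type and 2.31, 2.32 and 1.90 CPM in HIP, and the narrowest gap lay between 48 reads in WT26 and 38 in HIP2. The difference was -0.99 (SE 0.51, limma adjusted p = 0.691) and -0.603 without WT4. Oas1a had 1.97, 2.27 and 3.40 CPM against 3.46, 1.89 and 3.31 CPM, and Oas1f had 19.8, 14.6 and 6.44 CPM against 8.51, 7.94 and 18.7 CPM, and both overlapped. Oas1 genes are close copies, so reads shared among them make single levels uncertain.

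**Figure D4:**
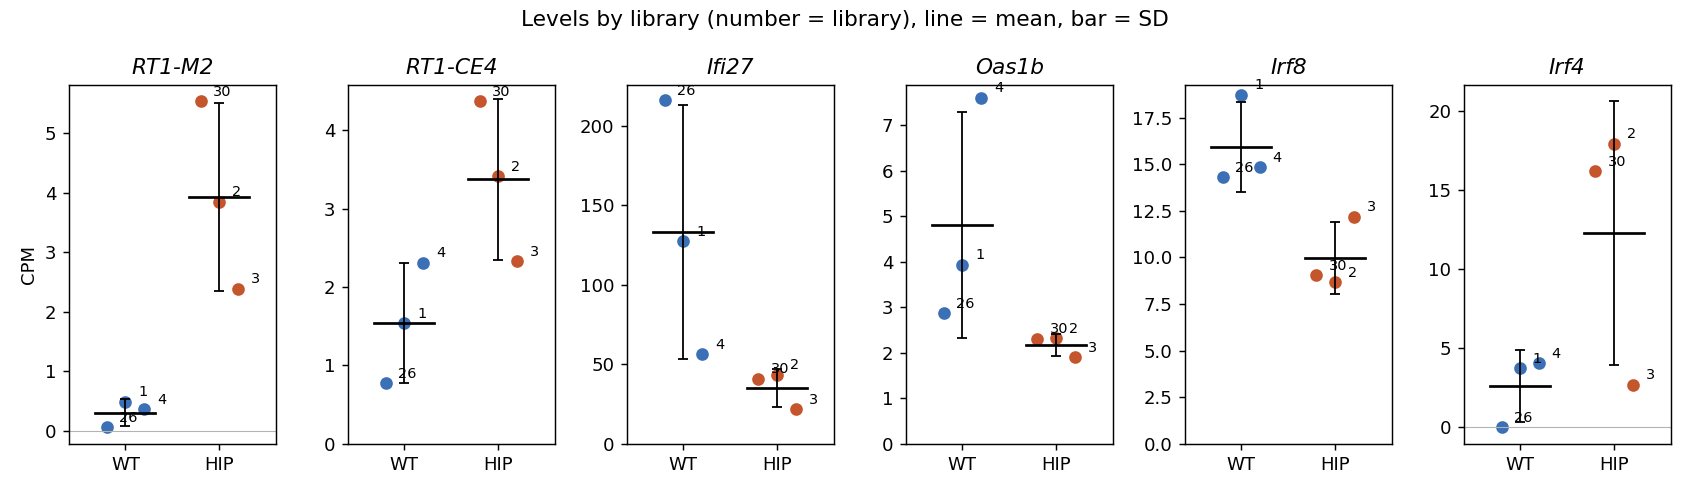
CPM in each library, labelled with its number, for the 5 members whose groups do not overlap and for Irf4, with group means and SD. RT1-M2, Ifi27 and Irf8 are separated, RT1-CE4 is separated only by the narrow gap between WT4 and HIP3, and Irf4 in HIP3 lies inside the wild-type range.

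Antiviral effectors were mostly highest in WT4 or HIP30. Mx2, a dynamin-like GTPase, had 16.2, 18.9 and 47.5 CPM in wild type and 49.2, 39.1 and 15.1 CPM in HIP (difference 0.33, SE 0.54, limma adjusted p = 0.916). Mx1, its relative, had 6.02, 7.43 and 23.5 CPM against 13.1, 13.98 and 5.15 CPM. Isg15, the ubiquitin-like modifier, had 5.96, 4.11 and 8.27 CPM against 11.3, 9.16 and 3.74 CPM. HIP3 was the lowest library for all 3 of these.
Among the Ifit genes, whose products act on viral RNA, Ifit1 had 5.48, 2.89 and 14.8 CPM against 4.56, 4.46 and 5.88 CPM. Ifit2 had 3.87, 6.88 and 20.8 CPM against 8.75, 12.03 and 9.50 CPM, and Ifit3 had 2.56, 3.32 and 10.9 CPM against 6.02, 7.45 and 4.66 CPM. WT4 was the highest library for each of them.

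The 4 members that are GTPases induced by interferon gamma were likewise highest in WT4. Gbp2 had 3.10, 6.20 and 24.5 CPM in wild type and 8.69, 14.04 and 7.78 CPM in HIP. Gbp5 had 1.97, 1.72 and 12.5 CPM against 3.95, 6.47 and 3.25 CPM. Irgm had 13.7, 17.01 and 30.7 CPM against 27.1, 26.1 and 16.8 CPM, and Ifi47 5.07, 12.5 and 31.2 CPM against 19.3, 21.2 and 10.2 CPM. In all 4 genes the HIP libraries lay within the wild-type range. Igtp, such a GTPase outside the member rule, was instead highest in HIP30, at 13.6, 21.2 and 53.2 CPM against 73.4, 50.5 and 26.2 CPM.

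The largest positive differences among interferon-induced genes were those of Oasl2 and Ifi44. Oasl2, an OAS-like protein, stood at 1.31, 4.97 and 27.4 CPM in wild type and 14.95, 11.2 and 17.2 CPM in HIP, a difference of 1.29 (SE 0.93) that was 2.41 without WT4 and 0.28 without WT26. Ifi44 stood at 8.82, 20.3 and 45.8 CPM against 42.2, 49.2 and 19.9 CPM, a difference of 0.77 (SE 0.598) that was 0.18 without WT26. Neither passed (limma adjusted p = 0.760 and 0.784).

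Ifi30, a lysosomal thiol reductase of class II processing, was steady at 41.4, 48.9 and 49.5 CPM in wild type and 50.9, 42.9 and 51.6 CPM in HIP. Ifi35 had 18.5, 8.84 and 24.6 CPM against 39.6, 16.5 and 12.5 CPM, and Ifi27l2b, related to Ifi27, had 17.9, 8.17 and 14.95 CPM against 17.1, 8.79 and 8.33 CPM. The other tested members, Ifi204, Oas1h, Oas2 and Oasl, overlapped between groups. In all, 14 of 23 tested genes of the list were above 0, with a median of 0.16. It was 0.57 without WT4, 0.39 without HIP3, 0.073 without HIP2, -0.073 without WT1 and -0.036 without WT26, and -0.16 with the libraries numbered 1 to 4 alone. The 9 tested genes with an ISRE core upstream had a median of 0.30 with a range of -1.78 to 1.29, and the 8 with a promoter but no such match a median of -0.02. The order was the other way in class I, with -0.15 for 3 genes with the core and 0.54 for 19 without, and over all members, with 0.17 for 16 and 0.28 for 46.

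Stat2, a transducer of type I interferon, had 48.7, 40.6 and 76.3 CPM in wild type and 56.4, 54.5 and 72.3 CPM in HIP. Irf9, its DNA-binding partner, had 56.3, 63.3 and 82.2 CPM against 52.9, 51.5 and 58.3 CPM (difference -0.29, SE 0.20, limma adjusted p = 0.747). WT4 was the highest library for both, and the groups overlapped.

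Irf8, a factor of myeloid and dendritic cells, was lower in each HIP library. It stood at 14.3, 18.7 and 14.8 CPM in wild type and 9.06, 8.67 and 12.2 CPM in HIP, with means of 15.96 ± 2.42 and 9.97 ± 1.93 CPM (SD, n = 3). The difference was -0.68 (SE 0.30, limma adjusted p = 0.691) and ran from -0.84 to -0.57 with each library left out. Of the 7 dendritic cell markers measured, 5 had a difference above 0, with a median of 0.23. Among them Xcr1 was lower in HIP without overlap, at 1.13, 1.66 and 3.40 CPM against 0.425, 0.427 and 0.674 CPM, and Zbtb46 was higher without overlap, at 1.19, 2.46 and 4.38 CPM against 6.87, 4.40 and 6.13 CPM. The part of such cells in the Irf8 level was not tested.

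Irf4, a factor of activated lymphocytes and of some macrophages and dendritic cells, split the HIP group. It had no read in WT26, which allows up to 0.179 CPM at 3 reads, and 3.75 and 4.07 CPM in WT1 and WT4. In HIP it stood at 16.2, 17.9 and 2.70 CPM, so that HIP3 lay below WT1 and WT4. The fitted difference of 2.91 (SE 1.40, limma adjusted p = 0.691) depends on the pseudocount because of WT26 and was 1.22 without that library. Of the 13 macrophage and monocyte markers only Mpeg1 was likewise at 0 in WT26 and highest in HIP30 and HIP2. By their highest library, 6 of the 13 were highest in WT4, 3 in HIP2, 2 in HIP30, 1 in WT26 and 1 in HIP3. The last, Itgam, was higher in HIP without overlap, at 2.03, 2.83 and 5.05 CPM against 9.66, 6.35 and 10.5 CPM. The islet marker Sst ran like Irf4, at 0, 27.6 and 35.02 CPM in wild type and 246, 172 and 10.2 CPM in HIP. A link between Irf4 and these genes was not tested.

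Irf1, an interferon-induced activator of class I genes, had 12.6, 17.01 and 33.9 CPM in wild type and 33.9, 29.8 and 14.6 CPM in HIP (difference 0.34, SE 0.46, limma adjusted p = 0.890). WT4, HIP30 and HIP2 were high and the others low, as for Mx2. Irf7, the amplifier of type I interferon, had 14.96, 8.17 and 20.2 CPM against 9.85, 11.5 and 7.35 CPM, and Irf5, a factor of myeloid cells, 6.14, 7.31 and 14.8 CPM against 11.002, 9.95 and 10.5 CPM. Irf3, which acts downstream of the sensors, had 238, 164 and 196 CPM against 261, 218 and 164 CPM, and Irf2 44.7, 42.5 and 37.3 CPM against 36.2, 42.8 and 39.03 CPM. Of the 11 regulators 5 were above 0, with a median of -0.02. Outside these lists, Irf2bp1 had 30.2, 12.04 and 21.9 CPM against 45.3, 16.6 and 21.9 CPM and Irf2bpl 54.4, 50.7 and 34.8 CPM against 42.6, 38.4 and 40.1 CPM.

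Other genes of the pathway were counted in lists by role. None passed limma's test in either direction among 5 tested ligands and receptors, 9 signalling and feedback genes, 13 nucleic acid sensors, 22 other interferon-induced genes and 25 other antigen processing genes. Above 0 were 3, 8, 9, 14 and 17 of them, with medians of 0.15, 0.12, 0.09, 0.13 and 0.15. Without overlap, 1, 0, 0, 0 and 2 of them were higher in HIP, against 5.27% of all genes. Lower without overlap were 0, 0, 1, 0 and 0, against 4.27% of all genes. Of the interferons, Ifna2, Ifna4 and Ifng had 1, 4 and 4 reads in WT4 and none elsewhere. Ifnk, an epithelial type I interferon, had 2.62, 4.36 and 3.04 CPM in wild type and 4.50, 5.98 and 5.15 CPM in HIP, without overlap. The interferon gamma receptor chains Ifngr1 and Ifngr2 ranged from 186 to 266 and from 42.6 to 100.1 CPM over the libraries.

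Signalling genes and sensors overlapped between groups with one exception. The kinase Jak2 ranged from 93.5 to 109 CPM in wild type and 106 to 132 CPM in HIP, the feedback gene Usp18 from 0.358 to 9.06 and 1.41 to 7.33, and Pias1, an inhibitor of interferon signalling, from 59.5 to 98.8 and 73.9 to 97.4. The RNA sensors Tlr7 and Tlr3 ranged from 0.0596 to 7.78 and 3.86 to 8.36 CPM and from 45.2 to 112 and 40.1 to 72.8 CPM. Dhx58, a regulator of RNA sensing, was the exception, at 12.1, 16.3 and 18.7 CPM against 12.096, 11.2 and 8.70 CPM (difference -0.54, SE 0.32, limma adjusted p = 0.698). Here WT26 and HIP30 all but met, with 203 of 17574682 and 199 of 15141136 reads. Relative to these totals alone HIP30 lay above WT26, so the separation rested on the TMM factors.

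Azgp1, a secreted class I-like protein that binds lipids, had the lowest unadjusted p of these lists. It stood at 1.97, 2.46 and 5.29 CPM in wild type and 8.21, 7.14 and 9.50 CPM in HIP, without overlap (difference 1.44, SE 0.48, limma adjusted p = 0.691). Epsti1, induced by interferon, had 1.67, 7.68 and 23.5 CPM against 24.4, 23.4 and 16.4 CPM (difference 1.62, and 0.64 without WT26). Cd274, which encodes the ligand PD-L1, had 0.179, 0.798 and 2.13 CPM against 1.95, 2.99 and 2.76 CPM (difference 1.63, and 0.88 without WT26). In both genes WT4 lay inside the HIP range and WT26 was lowest. Cmpk2 ranged from 15.6 to 32.9 and 9.06 to 23.8 CPM. Ctss, the protease that trims the invariant chain, had 5.01, 12.96 and 27.1 CPM against 29.7, 28.6 and 17.3 CPM. Nfyc, a subunit of the factor that binds the Y box, had 96.2, 96.9 and 78.5 against 132, 124 and 91.04 CPM. Of its other subunits, Nfya was higher in HIP without overlap, at 14.2, 13.9 and 15.4 against 17.1, 19.3 and 17.4 CPM, and Nfyb overlapped.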

How the data were processed

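RNA-seq of 6 libraries was used, for which the authors deposited 1 table each with 15679 gene rows holding log2 CPM values. After a prior worth 0.25 reads is removed, each column sums to 1000000 CPM and 100% of values are whole reads (tolerance 0.1 reads). Per the submitters' processing notes STAR, HTSeq, edgeR, limma and the build rn5 were used; versions and strand settings were not stated there. The 4 rows of the repeated symbols March1 and March2 were left out.

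Genes needed 10 reads at the median library (0.610 CPM) in at least 3 libraries and 15 reads in all, which left 12102. Log2 values of TMM-scaled CPM (factors 0.933 to 1.09, trims of 30% and 5%) plus a pseudocount worth 2 reads (0.121 CPM) entered limma 3.58.1 (R 4.3.3, trend option), which understates the change of low genes. Benjamini-Hochberg adjustment ran over all 12102 genes at a threshold of 0.05. The steps were tested on simulated reads.

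The rule for values in every library was a mean of 5 CPM in the higher group or a place among the 10 lowest p (55 members), and for pathway lists the 3 lowest p. Members and lists were chosen with earlier results of these data known. Oas1a, Xcr1, Zbtb46, Krt19, the interferons without a test, the promoters shown and the ratios were chosen after their values were seen. So were Mpeg1, Cd14, Sst, Coro1a, Laptm5 and Igtp, and the macrophage and monocyte sum without Mpeg1. The same holds for Itgam, Nkg7, Cd79b, Nfya, Nfyb and the single fibroblast genes, and for the pair WT4 and HIP30. A read count of 0 was taken to allow 3 reads, counting error only. RefSeq promoters (GRCr8) were matched by symbol. A few genes that enter the counts and medians are not reported here by name.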

Additional observations from a re-analysis of the deposited data

How the results depend on the processing

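By limma 0 of 12102 genes were called with all libraries, and 0 under each alternative: other scalings (2), filters (2) and pseudocounts (2), limma-voom, a term for the number series in the titles, the libraries numbered 1 to 4 alone, and each library left out. At an unadjusted p under 0.05 were 154 to 1803 genes, and the smallest adjusted p over genes lay between 0.0882 (without HIP3) and 0.9997 (libraries 1 to 4 alone). With each library left out the list medians ran from 0.00496 to 0.56 for class I, -0.14 to 0.49 for loading, 0.13 to 1.12 for class II, -0.073 to 0.57 for interferon-induced genes and -0.055 to 0.092 for regulators, so that those of loading, interferon-induced genes and regulators changed sign. Of the 55 members named by rule 36 changed sign in at least 1 alternative, 30 without 1 library, 23 with libraries 1 to 4 alone and 3 with another scaling. With libraries 1 to 4 alone the differences were -0.24 for B2m, -0.047 for Cd74, -0.20 for Irf1, -0.30 for Mx2, -0.33 for Psmb9, -0.59 for RT1-Ba, -0.20 for RT1-Da, -0.0399 for Tap1 and -0.12 for Tapbp. With each library left out they ran from -0.041 to 0.44 for B2m, -0.58 to 0.50 for Ciita, -0.0017 to 0.83 for Mx2, -0.29 to 0.53 for Psmb9, -0.87 to 0.35 for RT1-A2, -0.54 to 1.12 for RT1-Ba, -0.31 to 0.054 for RT1-S3 and -0.20 to 0.48 for Tap1. With both WT4 and HIP30 left out, chosen after seeing the data, Ciita was at 0.57. These settings hold fewer libraries; which property of a library moved a value was not tested. No paired analysis was possible because the groups share no replicate numbers. The filter on low reads left 22 members untested.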
